A study of Rattus norvegicus with 36 samples.

Results

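The genes described here are the pore-forming and auxiliary subunits of voltage-gated sodium and calcium channels in the hippocampus of female rats. They were taken by symbol alone: sodium alpha and beta subunits (Scn with a number and the letter a or b), calcium alpha1 subunits (Cacna1), alpha2delta subunits (Cacna2d), beta subunits (Cacnb) and the gamma family (Cacng). The table held 39 such genes among 20603, and 35 of the 39 had a median of at least 10 normalized counts over the columns. A symbol of the same pattern in RefSeq, Cacna1i, was not analysed here. RNA had been extracted from frozen hippocampus and sequenced in 36 animals, with 6 animals under each of 6 status labels. The labels were Reg6m (regular cycles, 6 months of age), Reg9m (regular cycles, 9 months), Irreg9m (irregular cycles, 9 months), Acyc9m (acyclic, 9 months), RegOVX10m (ovaries removed at 9 months, collected at 10 months) and Acyc16m (acyclic, 16 months). All animals were female, and the labels give neither a strain nor a genotype. The 36 columns carry the word hippo and a running number, and no label tied a column to an animal. All 36 were therefore read as 1 set in which the 6 labels are mixed, and no comparison of cycle status, age or ovary removal was made. A correlation between genes can thus hold differences between the labels, differences between dissections and differences between animals, which cannot be told apart here.

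Voltage-gated sodium channels open on depolarization and carry the rising phase of the action potential. Each has 1 large alpha subunit that forms the pore, with beta subunits that adjust gating and anchor the channel to the membrane and its neighbours. Voltage-gated calcium channels turn the same depolarization into calcium entry, which drives transmitter release, dendritic signals and gene transcription. Their alpha1 subunit forms the pore, alpha2delta and beta subunits bring it to the surface and tune it, and most gamma family members in brain act instead on AMPA-type glutamate receptors. In the hippocampus these genes set how pyramidal cells, granule cells and interneurons fire and release transmitter.

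The columns were much alike, with 4 that stood apart. Depth, estimated from the value that a single read takes in each column and given in M reads (units of 1000000), ran from 17.9 to 40.2 with a median of 35.5. The shallowest column was hippo30, and the lowest normalized total of any column was 34.5 M. By a limit of 5 median absolute deviations on the mean correlation with the other columns, hippo2, hippo16, hippo17 and hippo30 stood apart, and results are given with and without them. Neuronal markers were high in every column (Snap25 was 55020 normalized counts in the lowest). The column hippo17 had the lowest summary of the pan-neuronal, interneuron, dentate granule, CA2 and microglia lists and the highest of the oligodendrocyte, oligodendrocyte precursor, astrocyte, endothelial, mural and thalamic lists. Its Mbp, a myelin protein gene, was 200540 against a median of 95531. In whole tissue, fewer cells of a type and less RNA per cell cannot be told apart. The first principal component of all genes took 8.28% of the variance and had no gap over 6.17% of its range that left at least 6 columns on each side. Beyond such gaps, hippo17 lay alone at one end of this component, and hippo2, hippo30 and hippo16 were the 3 columns farthest out at the other.

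Most subunits were well expressed and varied little. Of the 39 genes, 27 had a median of at least 1000 normalized counts, 4 lay between 100 and 1000, 4 between 10 and 100, and 4 below 10. The values are not divided by transcript length, since no length was at hand, so levels of different genes are not ranked. The standard deviation of log2(value + 1) over the 36 columns had a median of 0.12 among the 35 genes and 0.12 among all 15837 genes past the same limit. Among genes with a median of at least 1000, it was 0.10 for the channel subunits and 0.08 for all 6486 genes, both as descriptions. For 29 of the 35 genes the standard deviation was at least 2 times the spread that read counting alone would give. The highest column was at least 2 times the lowest, after adding 1, for 8 of the 35 subunits, against 20.6% of all genes, so their share was near the background. Among these 8 were Scn7a, Scn9a, Scn4b, Cacna1e, Cacna1f, Cacna1s and Cacng5, and 6 of the 8 remained without the 4 columns. For Scn4b, Cacna1e and Cacng5 a single column made the difference, since the range was under 2-fold without hippo2 for Scn4b, without hippo34 for Cacna1e and without hippo16 for Cacng5.

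**Figure D1:**
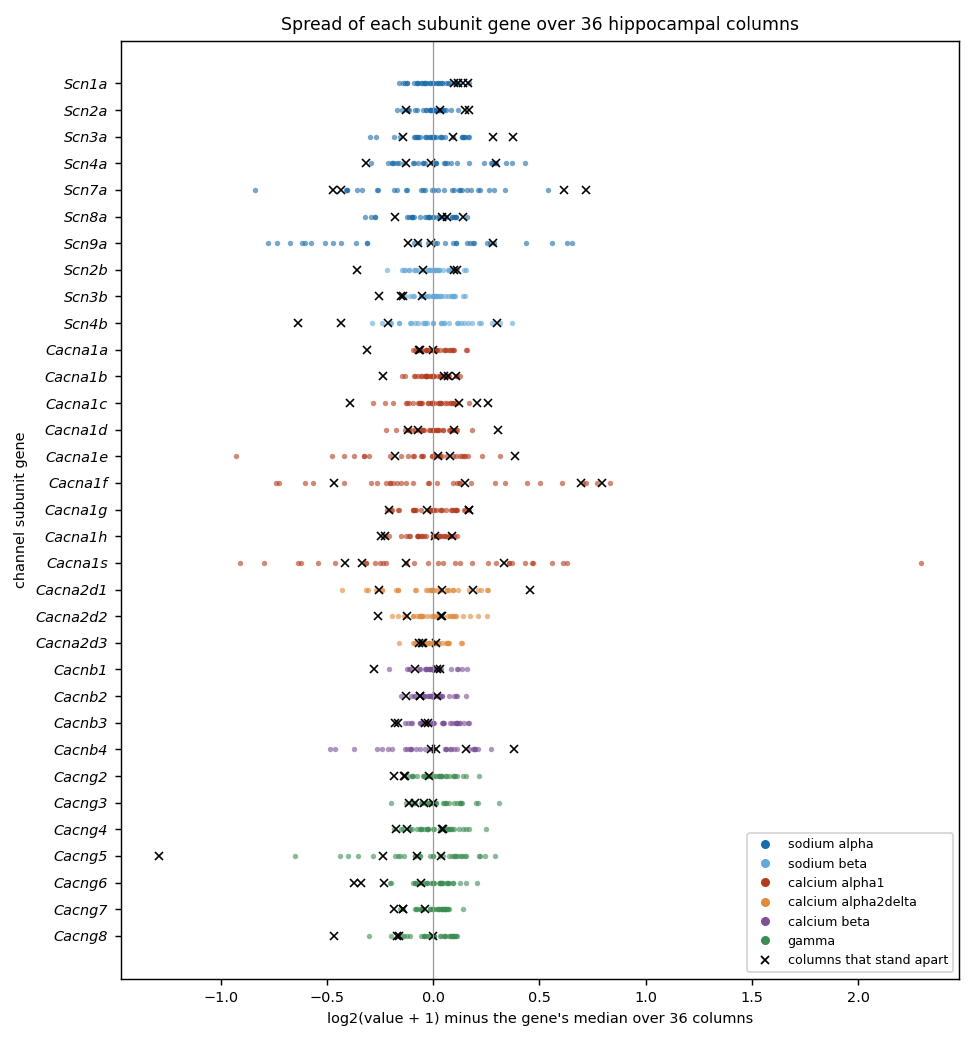
Each of the 33 rows is a subunit gene and each mark a column, placed at its log2(value + 1) minus that gene's median over 36 columns, with colours for the 6 families and crosses for the 4 columns that stand apart. Most genes lie within a narrow band, Cacna1s has 1 column far to the right at 67.4 normalized counts, and Cacng5 and Scn4b have their lowest values in columns marked by crosses.

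Among the sodium alpha subunits, the 4 genes that form most neuronal sodium channels stood above 1000 normalized counts in every column. Scn2a, the channel of early axons and of pyramidal cell dendrites, ran from 13109 to 16562 with a median of 14755. Scn8a, the main channel of the mature initial segment and node, ran from 8309 to 11586 with a median of 10385. Scn1a, the channel on which fast-spiking interneurons depend, ran from 3871 to 4862 with a median of 4324. Scn3a, best known from the developing brain, ran from 1760 to 2809 with a median of 2162, and hippo16 was its highest column. The spread of these 4 genes was small, with standard deviations between 0.08 and 0.14 on the log2 scale. The channels best known outside the brain were lower. Scn4a, the skeletal muscle channel, ran from 147 to 247 with a median of 183. Scn7a, an atypical member linked to sensing of extracellular sodium, ran from 20.1 to 61.1 with a median of 36.7. Scn9a, best known from nociceptors, ran from 107 to 291 with a median of 184, a 2.70-fold range with no column far from the next. Scn10a and Scn11a, both channels of sensory ganglion neurons, had medians of 3.25 and 2.99, and were at 0 in 2 and 5 columns.

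The sodium beta subunits were all expressed. Scn2b, which is linked to the alpha subunit by a disulfide bond, ran from 2572 to 3665 with a median of 3292. Scn3b, which is bound without such a bond, ran from 24027 to 31797 with a median of 28672. Scn4b, known for its part in resurgent current, ran from 705 to 1418 with a median of 1097. The ratio of Scn2b to Scn4b was lowest in hippo17 and highest in hippo2, a 2.65-fold range that was 1.53-fold without the 4 columns.

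The calcium alpha1 subunits covered all the current types. Cacna1a, the P/Q-type pore of presynaptic terminals, ran from 8412 to 11628 with a median of 10427, and its lowest column, hippo2, lay below the second lowest at 9757. Cacna1b, the N-type pore that shares this role, ran from 5294 to 6797 with a median of 6237. Cacna1e, the R-type pore, ran from 3221 to 8011 with a median of 6133. The lowest column for Cacna1e was hippo34, with a second lowest of 4409 in hippo10, and the highest were hippo16 at 8011 and hippo20 at 7631. Cacna1c and Cacna1d, the L-type pores of neurons, ran from 2229 to 3493 (median 2919) and from 3678 to 5300 (median 4285). Cacna1g and Cacna1h, pores of the low-threshold T-type current, ran from 3092 to 4045 (median 3595) and from 6659 to 8507 (median 7884). The share of Cacna1e in the summed normalized counts of the alpha1 family ran from 7.77% to 17.7%, the widest of the family in standard deviation at 1.88 percentage points. The L-type pores of retina and skeletal muscle were near the floor. Cacna1f, the retinal one, ran from 7.91 to 25.5 with a median of 13.9, close to the spread of counting alone (1.13 times). Cacna1s, the skeletal muscle one, had a median of 12.9 and was at 67.4 in hippo20, where the second highest column was 20.5.

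The same column, hippo20, was the highest for each of the 3 muscle markers found (Ttn was not analysed here). Ckm, muscle creatine kinase, was at 588 there against a median of 3.13, Acta1, skeletal actin, at 1709 against 464, and Myh7, a slow myosin, at 488 against 231. The muscle list, as the mean of log2(value + 1), ran from 5.78 to 9.62 over the columns. Cacng1, the skeletal muscle gamma subunit, was also highest in hippo20, at 12.1 against a median of 5.55, although its second highest column was 11.9. The correlation of Cacna1s with the muscle list was r = 0.65 (permutation p = 0.00949, adjusted p = 0.00160 over all genes and lists), but rho was 0.15 (permutation p = 0.380) and r was 0.18 without the 2 farthest columns. It rests on those columns. The part of muscle tissue in that Cacna1s value was not tested.

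Auxiliary calcium channel subunits varied unevenly. Cacna2d1, the alpha2delta protein that binds gabapentin, ran from 2860 to 5286 with a median of 3854. Cacna2d2, also a gabapentin target, ran from 1155 to 1653 with a median of 1385. Cacna2d3 ran from 4767 to 5850 with a median of 5330 and had the smallest standard deviation of the 35 genes, 0.06. Cacna2d4, best known from retina, had a median of 8.05 and was below the limit. Of the beta subunits, which bind the intracellular side of the pore, Cacnb1 ran from 4767 to 6446 (median 5778) and Cacnb3 from 5113 to 6500 (median 5787). Cacnb2 ran from 1896 to 2347 with a median of 2106, and Cacnb4, the subunit mutated in the lethargic mouse, ran from 1230 to 2244 with a median of 1724. The ratio of Cacnb1 to Cacnb3 had a 1.20-fold range, while that of Cacnb3 to Cacnb4 had a 2.20-fold range. Cacnb4 was lowest in hippo34 and hippo10 and highest in hippo16, and its share of the beta family ran from 7.69% to 15.2%.

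In the gamma family, Cacng2, Cacng3, Cacng4 and Cacng8 encode the classical AMPA receptor regulatory proteins. Cacng2, the gene mutated in the stargazer mouse, ran from 2217 to 2924 with a median of 2523. Cacng3 ran from 1865 to 2649 with a median of 2137, and Cacng4 from 1591 to 2142 with a median of 1805. Cacng8, the member enriched in hippocampus, ran from 3360 to 5010 with a median of 4643, and hippo17 was its lowest column. Cacng7, one of the atypical AMPA receptor partners, ran from 3377 to 4232 with a median of 3836. Cacng5, the other of these and a gene used as a CA2 marker, ran from 122 to 367 with a median of 300 and was lowest in hippo16, with a second lowest of 191. Cacng6, related to the muscle subunit, ran from 156 to 234 with a median of 203. The ratio of Cacng2 to Cacng7 was the steadiest of the 52 ratios compared within families, with a 1.18-fold range.

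Many of the subunits moved together. Over the 35 genes there were 595 pairs, and each pair's Pearson r on log2(value + 1) was tested across the 36 columns, with Benjamini-Hochberg adjustment over all 125397366 pairs of genes. An adjusted p under 0.05, reached here at |r| of 0.49, was found for 76 pairs with r above 0 (12.8%) and for 28 with r below 0 (4.71%). Among all pairs of genes the shares were 2.73% and 2.06%. The median r was 0.11 among the subunits and 0.00 among all genes. These 104 pairs were chosen on all 36 columns, so keeping their sign in most of the same columns was likely in advance. All 104 kept it without the 4 columns, with a lowest |r| of 0.18. In that smaller set 45 and 13 pairs passed, which is 7.56% and 2.18% against 1.46% and 0.893% of all pairs. Leaving out hippo16 alone left 14 pairs with r below 0 (2.35% against 1.42% of all pairs), and leaving out hippo17 alone gave 34. The genes share their libraries, and the difference between the subunits and all genes was not itself tested.

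The closest pair was Cacna1e with Cacna2d1, at r = 0.87 and rho = 0.93 (adjusted p = 3.88e-08). Both were highest in hippo16 and low in hippo34 and hippo10, and r was 0.92 without the 2 columns farthest from the median. Cacnb4 went with both, at r = 0.82 with Cacna2d1 and r = 0.81 with Cacna1e (adjusted p = 2.41e-06 and 3.08e-06). An alpha1, an alpha2delta and a beta gene thus formed a triplet. It was not closed, since the sodium alpha genes Scn3a and Scn8a each also passed with all of its members, with r above 0. Scn8a and Cacna2d1 had r = 0.78 (adjusted p = 1.91e-05). Scn2a and Cacna1c had r = 0.80 (adjusted p = 8.02e-06), and Cacna1b and Cacna1c had r = 0.77 (adjusted p = 3.17e-05). A further group joined auxiliary subunits. Cacnb3 and Cacng7 had r = 0.75 (adjusted p = 9.35e-05), and Cacnb1 and Cacng8 had r = 0.74 (adjusted p = 1.10e-04). The permutation p of r was 1e-05 for each of the 8 pairs whose r is given above, the smallest that 100000 resamples can give. Their r lay between 0.65 and 0.87 without the 4 columns. Without the 2 farthest columns, r of Cacnb1 and Cacng8 was 0.52 and the other 7 lay between 0.65 and 0.92.

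**Figure D2:**
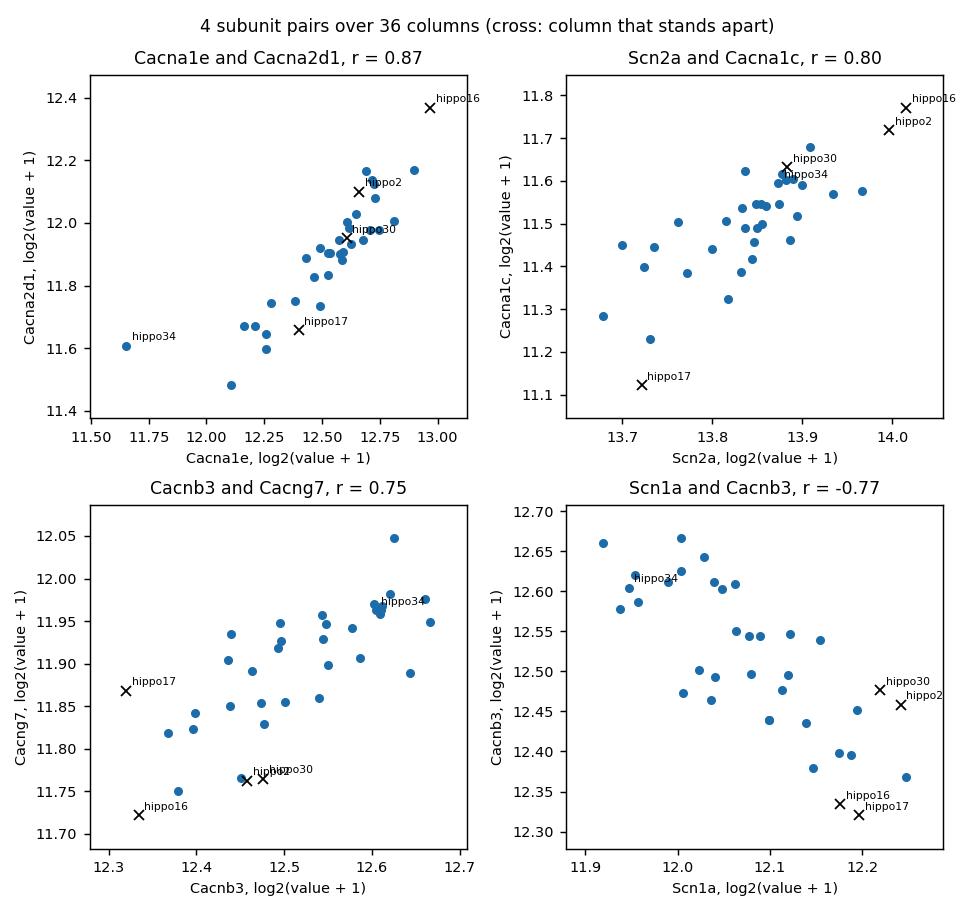
Each panel plots 36 columns by the log2(value + 1) of 2 subunit genes, with crosses for hippo2, hippo16, hippo17 and hippo30. Cacna1e and Cacna2d1 (r = 0.87), Scn2a and Cacna1c (r = 0.80) and Cacnb3 and Cacng7 (r = 0.75) rise together, Scn1a and Cacnb3 (r = -0.77) go opposite ways, and hippo34 lies far to the left in the Cacna1e panel.

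The promoters of Cacna1e and Cacna2d1, the pair with the highest r, and of Scn2a and Cacna1c, a sodium and a calcium pore with r = 0.80, are shown because these genes moved together. They come from the RefSeq table of build GRCr8, reach from 250 bases before to 50 bases after a transcript start, and carry in capitals the matches to any of 5 motifs, searched on both strands. The TATA box, which positions the start of transcription in some promoters, was searched as TATAAA. For the GC box, bound by Sp factors, the letters were GGGCGG. The site of the factor NF-Y was searched as CCAAT and the core of the cAMP response element, bound by CREB, as TGACG. For the E box, bound by helix-loop-helix factors, the letters CACGTG were used. The table lists 3 starts for Cacna2d1, and the one with the lowest coordinates is printed.
Cacna1e (chr13:69444761-69445060, minus strand): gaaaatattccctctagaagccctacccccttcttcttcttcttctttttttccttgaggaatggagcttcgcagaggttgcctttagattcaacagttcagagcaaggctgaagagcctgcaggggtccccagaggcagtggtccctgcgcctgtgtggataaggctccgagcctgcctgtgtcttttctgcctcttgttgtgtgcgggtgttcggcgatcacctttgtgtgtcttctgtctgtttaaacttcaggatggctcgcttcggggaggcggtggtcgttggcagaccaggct
Cacna2d1 (chr4:20329813-20330112, minus strand): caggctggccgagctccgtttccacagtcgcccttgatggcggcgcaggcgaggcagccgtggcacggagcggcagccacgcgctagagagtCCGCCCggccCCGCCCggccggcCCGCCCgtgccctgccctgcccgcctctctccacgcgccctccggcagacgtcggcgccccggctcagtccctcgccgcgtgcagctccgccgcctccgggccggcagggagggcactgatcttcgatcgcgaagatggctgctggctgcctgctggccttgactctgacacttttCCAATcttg
Scn2a (chr3:70710706-70711005, plus strand): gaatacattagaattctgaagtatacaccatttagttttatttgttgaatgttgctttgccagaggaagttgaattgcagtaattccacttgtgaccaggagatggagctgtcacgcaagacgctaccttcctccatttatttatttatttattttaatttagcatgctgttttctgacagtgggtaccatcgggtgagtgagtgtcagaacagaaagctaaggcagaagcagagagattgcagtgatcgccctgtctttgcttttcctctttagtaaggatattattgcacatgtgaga
Cacna1c (chr4:154051699-154051998, minus strand): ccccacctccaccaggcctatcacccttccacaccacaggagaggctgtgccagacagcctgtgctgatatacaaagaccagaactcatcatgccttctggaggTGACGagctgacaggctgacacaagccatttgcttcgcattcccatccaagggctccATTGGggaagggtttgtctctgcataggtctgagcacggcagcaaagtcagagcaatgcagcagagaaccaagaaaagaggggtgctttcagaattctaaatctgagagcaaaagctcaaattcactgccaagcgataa
The printed window of Cacna1e held none of these letters, and neither did that of Scn2a. That of Cacna2d1 held 3 GC boxes and 1 match to the NF-Y letters, and that of Cacna1c held 1 NF-Y match and 1 match to the cAMP response core. They also differed in CpG count, with 10 in Cacna1e, 36 in Cacna2d1, and 4 each in Scn2a and Cacna1c. Of the 39 genes, 27 had a promoter listed, with 30 promoters between them, and a gene counted if any of its promoters held the letters. The shares of all promoters are per promoter, so the counts are not made alike. Cacna2d1 and Cacnb2 counted for the cAMP response core only through a further start. The median CpG count was 11 for these genes and 7 for all promoters. A GC box stood in 14 of the 27 (51.9%), against 33.1% of all 33469 promoters. The TATA box letters were found in 2 of 27 (14.2% of all promoters), those of NF-Y in 5 (37.5%), the cAMP response core in 5 (21.2%) and the E box in 0 (6.42%). None of the 5 motifs contains another, and a match marks letters only.

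Sodium channel pores ran against the gamma family. Of the 56 pairs of a sodium alpha with a gamma gene, 11 passed with r below 0 (19.6%, against 2.06% of all gene pairs) and 0 with r above 0, with a median r of -0.26. By contrast, of the 72 pairs of a sodium alpha with a calcium alpha1 gene, 14 passed with r above 0 (19.4%, against 2.73% of all gene pairs) and 0 with r below 0. The lowest r of any pair was between Scn1a and the calcium beta gene Cacnb3, at -0.77 (adjusted p = 2.77e-05). Next were Scn2a with Cacng7 at -0.75 (adjusted p = 7.96e-05), Scn1a with Cacng7 at -0.72 (adjusted p = 2.55e-04), Scn2a with Cacng2 at -0.71 (adjusted p = 3.33e-04) and Scn2a with Cacng4 at -0.69 (adjusted p = 6.75e-04). For each of these 5 pairs the permutation p of r was 1e-05, rho lay between -0.66 and -0.79, and r lay between -0.65 and -0.77 without the 4 columns. Columns low in Scn2a, such as hippo4 and hippo12, were among the highest in Cacng7, and hippo16, the highest in Scn2a, was the lowest in Cacng7. Within families, 4 of 28 pairs of sodium alpha and 2 of 6 pairs of sodium beta genes passed. So did 6 of 36 pairs of calcium alpha1 and 4 of 21 pairs of gamma genes. All of these had r above 0, and 2.73% of all gene pairs passed with r above 0. Of the 3 pairs of alpha2delta genes 0 passed. Of the 6 pairs of calcium beta genes 1 passed in each direction. These were Cacnb1 with Cacnb3 at r = 0.74 (adjusted p = 1.29e-04) and Cacnb3 with Cacnb4 at r = -0.53 (adjusted p = 0.0265).

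**Figure D3:**
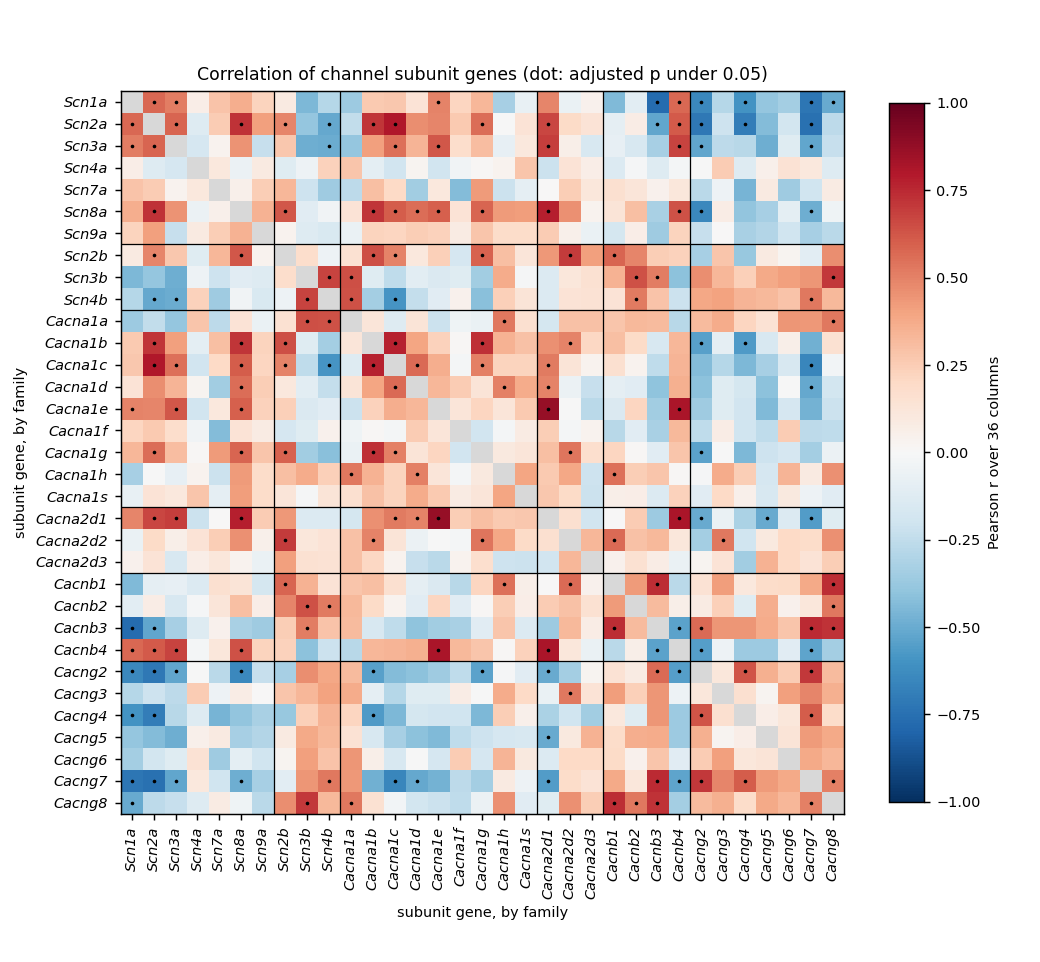
Both axes list 33 of the 35 subunit genes by family, colour gives Pearson r over 36 columns from -1 (blue) to 1 (red), and a dot marks an adjusted p under 0.05 over all gene pairs. The block of sodium alpha against gamma genes holds 11 dots, all blue, and in the block of sodium alpha against calcium alpha1 genes all dots are red.

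Part of this pattern lay along the main axis of the whole table. Of the 35 genes, 16 had an |r| of at least 0.5 with the first principal component of all genes, as did 17.3% of all genes. Scn2a had r = -0.83 with it, Cacna1c -0.81 and Cacna1b -0.79, while Cacng2 had 0.70 and Cacng7 0.68. Marker lists moved with the same axis, the oligodendrocyte list at r = 0.71 and the interneuron list at r = -0.61. Once that component was taken out, 46 pairs passed with r above 0 and 7 with r below 0 (7.73% and 1.18%, against 1.89% and 1.34% of all pairs). Scn2a with Cacng7, Cacng2 and Cacng4 then had r of -0.46, -0.33 and -0.46 (adjusted p = 0.106, 0.322 and 0.0969) and no longer passed. The same held for Scn2a with Cacna1c at 0.38 (adjusted p = 0.229) and Cacna1b with Cacna1c at 0.37 (adjusted p = 0.249). The other 10 of the 15 pairs with the highest and lowest r still passed, the triplet of Cacna1e, Cacna2d1 and Cacnb4 and the pair of Scn1a with Cacnb3 among them.

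Some genes stood outside the pattern. Scn4a, Scn7a, Scn9a, Cacna1f, Cacna1s, Cacna2d3 and Cacng6 had no partner past the threshold among the other 34. For Scn7a, Cacna1f, Cacna1s and Cacng6 the standard deviation was only 1.13 to 1.36 times the spread of counting alone. It was 1.87 times that spread for Scn4a and 3.17 times for Cacna2d3, whose standard deviation was the smallest of the 35 genes. Scn9a had a standard deviation of 0.39 on the log2 scale, 3.51 times the spread of counting alone. Whether a small spread kept such genes from passing was not tested. Scn2a, Scn8a and Cacna1c had the most partners with r above 0, at 9 each. Cacng2 and Cacng7 had the most with r below 0, at 8 each. Genes that neighbour each other in the GRCr8 annotation did not always move together. Scn3a and Scn2a, with no coding gene between them, had r = 0.58 (adjusted p = 0.00996; 0.37 without the 4 columns), and Cacng8 and Cacng7 had r = 0.51 (adjusted p = 0.0393). Scn1a and Scn9a had r = 0.22 (adjusted p = 0.527), Scn2b and Scn4b had -0.05 (adjusted p = 0.921), and Cacng4 and Cacng5 had 0.07 (adjusted p = 0.892).

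Subunits also moved with markers of hippocampal cell types. The mean log2(value + 1) of each of 16 marker lists was set against the 35 genes, which gave 560 relations, adjusted over all genes and lists. Of these, 31 passed with r above 0 and 31 with r below 0, against 3.65% and 3.22% of all genes and lists. In shares of 560, both are 5.54%. Without the 4 columns 10 and 6 passed (1.79% and 1.07%, against 0.918% and 0.525% of all genes and lists). Without hippo17 alone 22 and 17 passed (3.93% and 3.04%, against 1.78% and 1.30%). The named relations with the highest and lowest r for each list, apart from that of Cacna1s, had a permutation p of r between 1e-05 and 0.00346 and kept their sign without the 2 farthest columns, at an |r| between 0.29 and 0.72. The CA1 list (Fibcd1, Wfs1, Pou3f1, Mpped1 and Man1a1, all found) had 11 subunits with r above 0 and 0 below, against 6.11% and 1.98% of all genes for this list. Scn3b had the highest r with it, 0.73 (adjusted p = 1.28e-04), followed by Cacng8 at 0.68 and Scn4b at 0.68. Also among the 11 were Cacnb2, Cacnb3, Cacng3, Cacnb1, Cacna2d2, Cacng7 and, with the lowest r, Cacna1a at 0.48 (adjusted p = 0.0489). Without the 4 columns Scn3b still passed at 0.68 (adjusted p = 0.00713), and Cacna1a did not, at 0.39 (adjusted p = 0.314).

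The CA2 list (Amigo2, Pcp4 and Rgs14) had 7 of the 35 subunits with r above 0 and 4 below, against 10.2% and 8.02% of all genes, so the count below 0 was near the background. The highest was Cacnb3 at 0.66 (adjusted p = 0.00122), which was 0.51 without the 4 columns and no longer passed (adjusted p = 0.107). Cacng5, itself known as a CA2 marker, had r = 0.65. The lowest was Cacnb4 at -0.59 (adjusted p = 0.00626), which passed without them at -0.58 (adjusted p = 0.0417). The interneuron list (7 of 8 found) had 7 subunits with r above 0 and 0 below, against 7.02% and 5.67% of all genes. They were led by Scn2b at 0.77 (adjusted p = 2.46e-05; 0.61 without the 4 columns) and Cacna2d2 at 0.65. The lowest of the 7 was Cacna1g at 0.50 (adjusted p = 0.0325; 0.34 and not passing without the 4 columns). This list was lowest in hippo17, at 9.73 against a median of 10.5. The dentate granule list, in which Tdo2 had a median of 0, had 1 subunit with r above 0, against 0.411% of all genes. This was Cacna1d at 0.48 (adjusted p = 0.0438), which did not pass with a pseudocount of 0.5, at 0.40 (adjusted p = 0.127). The pan-neuronal list had 2 with r above 0, against 3.34% of all genes, so this count was near the background. Cacnb2 at 0.48 (adjusted p = 0.0454) was the lower of the 2. Neither the relation of Cacna1d nor that of Cacnb2 passed without the 4 columns.

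Against glial and vascular lists most of the relations that passed had r below 0. The exceptions were Cacng4 on the astrocyte list and Scn4b on the oligodendrocyte list. Cacng4 had r = 0.68 with the astrocyte markers (adjusted p = 6.35e-04; 0.73 without the 4 columns). On the same list 7 subunits had r below 0 (4.48% of all genes did), with Cacna1b at -0.69 (adjusted p = 4.85e-04; -0.61 and still passing without the 4 columns). On the oligodendrocyte list 6 subunits had r below 0 (5.12% of all genes did), with Cacna1c at -0.72 (adjusted p = 1.95e-04), and Scn4b had r above 0 at 0.55 (adjusted p = 0.0160). Both depended on hippo2, hippo16, hippo17 and hippo30, and without them were -0.42 and 0.27 and did not pass. The endothelial list had 6 subunits with r below 0 and that of oligodendrocyte precursors 4, against 6.28% and 3.67% of all genes. Scn2b had the lowest r with the endothelial list, -0.70 (adjusted p = 4.21e-04), and with the list of oligodendrocyte precursors, -0.62 (adjusted p = 0.00345). Cacna1b was the weakest passing relation on those 2 lists, at -0.48 (adjusted p = 0.0439) and -0.55 (adjusted p = 0.0135). With the mural list 2 subunits had r below 0 (7.69% of all genes did), so this count was not above the background. They were Cacng8 at -0.54 (adjusted p = 0.0180) and Cacnb3 at -0.48 (adjusted p = 0.0497). With the list for thalamic and other carryover 2 of the 35 subunits had r below 0 (4.497% of all genes did), so this count was near the background. These were Cacng8 at -0.60 (adjusted p = 0.00490) and Cacnb1 at -0.57 (adjusted p = 0.0103). None of the relations of Scn2b, Cacna1b, Cacng8, Cacnb3 and Cacnb1 with these 4 lists passed without the 4 columns. No subunit passed with the CA3, microglia, choroid plexus or meninges lists, where few of all genes passed either. The largest share there was 1.11% of all genes, on the choroid plexus list with r above 0. The part of cell makeup in any subunit's values was not tested.

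**Figure D4:**
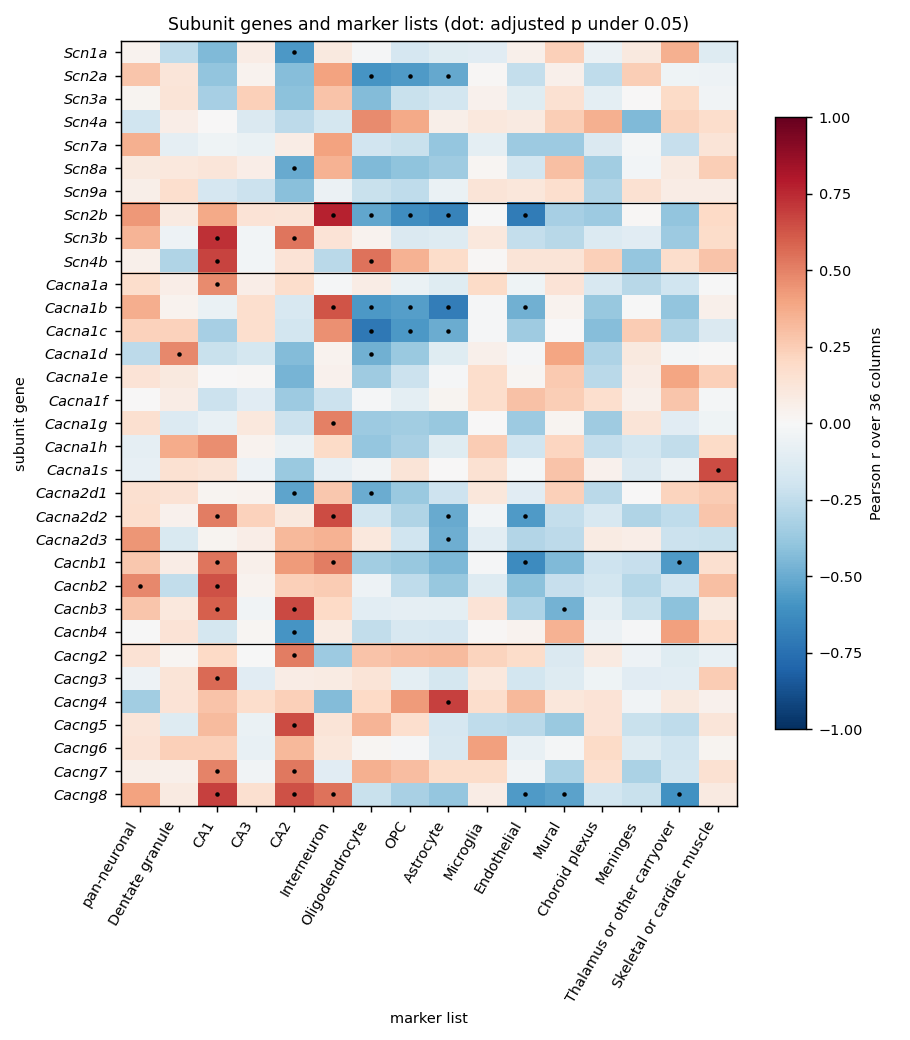
Rows are 33 of the 35 subunit genes by family and columns the 16 marker lists, colour gives Pearson r over 36 columns from -1 (blue) to 1 (red), and a dot marks an adjusted p under 0.05. The dots of the CA1 and interneuron lists are all red, and those of the astrocyte list are blue except for Cacng4.

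Genes listed as partners of the channels, none of them in the subunit families, were set against 1 subunit of their class. That subunit was the one with the highest normalized count. Of 10 partners of sodium channels and the axon initial segment, 5 passed with Scn2a, all with r above 0, and the median r was 0.48. Of all genes, 9.79% passed with Scn2a with r above 0 and 8.05% with r below 0. Cntn1, a neuronal adhesion protein, had r = 0.85 (adjusted p = 2.11e-07) and ran from 12196 to 17302. Ank2, an ankyrin that places channels in the membrane, had r = 0.78 (adjusted p = 1.90e-05), Nrcam, an adhesion protein of the initial segment, had r = 0.74 (adjusted p = 1.32e-04), and Fgf12 and Fgf11, intracellular binding partners of sodium channels, had 0.72 and 0.56. Without the 4 columns r with Scn2a was 0.79 for Cntn1, 0.75 for Ank2, 0.66 for Nrcam, 0.58 for Fgf12 and 0.46 for Fgf11. Ank3, the ankyrin that organizes the initial segment, had r = 0.21 (adjusted p = 0.573). The list of calcium channel partners had 14 genes found of 15, among them the release-site genes Rims1 and Rims2 and the channel inhibitors Rem2, Gem and Rrad. It also held Stac2, an adaptor of L-type channels, and Nalcn, Unc79 and Unc80 of the sodium leak channel. The 14 are therefore not all partners of the Cacna1a channel itself. Of the 14, 0 passed with Cacna1a, with a median r of -0.02. Of all genes 1.31% passed with r above 0 and 0.328% below, so 0 of 14 was near the background. The highest r of the 14 was that of Rem2, at 0.45 (adjusted p = 0.0824). Of 7 AMPA receptor genes and partners found of 8, 4 passed with Cacng8, against 9.07% of all genes with r above 0 and 4.12% below. They were Cnih2, a cornichon subunit of AMPA receptors, at 0.77 (adjusted p = 3.62e-05), Dlg4, the main postsynaptic scaffold, at 0.56 (adjusted p = 0.0150), Gria1, an AMPA receptor pore subunit, at 0.56 (adjusted p = 0.0163) and Cnih3 at 0.51 (adjusted p = 0.0359). Without the 4 columns r was 0.74 for Cnih2, 0.49 for Dlg4, 0.47 for Cnih3 and 0.33 for Gria1. For the partners of any list, adjusted p-values without these columns or the first principal component are not given. Gria2, the pore subunit that limits calcium entry, had r = 0.10 (adjusted p = 0.821).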

How the data were processed

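RNA-seq values of 36 hippocampus columns were read from 1 deposited table. The deposited values are normalized counts per gene symbol, a signal that is not whole-numbered, made by the authors. Kallisto 0.43 and DESeq2 are listed in the submitters' processing notes, with no role stated. The reference transcriptome, and how reads shared by related transcripts were divided, are not given in the sources used here. Values were taken as log2(value + 1). Genes with a median of at least 10 were kept. Correlations were computed in Python 3.11.15 with numpy 2.4.6 and scipy 1.17.1, as Pearson r and Spearman rho with 2-sided permutation p-values from 100000 resamples. Adjusted p-values came from the t distribution of r with Benjamini-Hochberg adjustment over all gene pairs, or all genes by 16 marker lists, and a call is an adjusted p under 0.05. The planned adjustment was over the subunits alone. The steps were tested on simulated data. Of the 39 genes, 2 stay in all counts but are not reported here one by one. Pairs named are otherwise the 10 highest and 5 lowest r past the threshold; relations to markers named by rule are the highest and lowest per list. Neighbours, partner lists and columns that stand apart are named as well, and other relations within a list were named after their values were seen. Subunits and lists were chosen with earlier results of these data known. Alternatives were the pseudocount, the filter, equal totals, ranks, removal of the first component and leaving out columns. Depth per column, estimated from the smallest steps of the values, most limits genes under about 10 normalized counts. It also limits the spread of some genes above that, up to Cacng6 with a median of 203, as listed with the processing alternatives. Column labels give no group, so no test between groups was made.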

Additional observations from a re-analysis of the deposited data

How the results depend on the processing

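Without the 4 columns that stand apart, 45 pairs of subunits passed with r above 0 and 13 with r below 0. These are 7.56% and 2.18%, against 1.46% and 0.893% of all pairs. In the same columns 10 and 6 relations to marker lists passed (1.79% and 1.07%, against 0.918% and 0.525% of all genes and lists). With ranks in place of values, 18 and 15 relations to marker lists passed (3.21% and 2.68%, against 2.06% and 1.51% of all genes and lists). With the first principal component taken out, 46 and 7 pairs passed (7.73% and 1.18%, against 1.89% and 1.34% of all pairs). With a minimum median of 100, 4 of the 31 subunits left had a 2-fold range, and the share of all genes at that limit was not computed. Leaving out each column in turn was an alternative chosen after seeing the data. It gave 62 (without hippo16; 10.4% against 2.07% of all pairs) to 76 pairs with r above 0. With r below 0 it gave 14 (without hippo16; 2.35% against 1.42%) to 34 pairs (without hippo17; 5.71% against 1.81%). Relations to marker lists numbered 22 to 31 with r above 0 and 17 to 35 with r below 0. Both lowest counts came without hippo17, at 3.93% and 3.04% against 1.78% and 1.30% of all genes and lists. Between 7 and 8 subunits had a 2-fold range. The pseudocount, the absence of a filter and equal column totals kept every one of these counts within 1.5 times. All 15 pairs with the highest and lowest r passed with each of the 36 columns left out in turn and under the other alternatives run on them (by unadjusted p without the 2 farthest columns), except removal of the first component, where 5 did not. Of 22 marker relations chosen likewise, 6 passed without the 4 columns, 9 with ranks and 21 with a pseudocount of 0.5, and 0 reversed. The cause was not tested. A smaller set of columns needs a larger r to pass. Shares per coding length and an order of levels were not run, since no length was at hand. Depth limits Scn7a, Scn10a, Scn11a, Cacna1f, Cacna1s, Cacna2d4, Cacng1 and Cacng6, whose spread was under 1.5 times that of counting. No paired analysis was possible because the labels carry no replicate numbers and the columns no labels.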

Other observations

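Ion channel genes outside the subunit families gave further values. The epithelial sodium channel genes, which share the Scn prefix but are not voltage-gated, were low: Scnn1a ran from 8.04 to 23.5 normalized counts with a median of 16.2, Scnn1b from 23.5 to 48.9 with a median of 35.7, and Scnn1g from 1.97 to 19.3 with a median of 7.11. The sodium leak channel complex varied unevenly. Nalcn, its pore, ran from 3241 to 5248 with a median of 4163. Unc80, a large auxiliary protein, ran from 6410 to 12941, a 2.02-fold range, whereas its partner Unc79 ran from 2758 to 3469, a 1.26-fold range. Among channel inhibitors, Gem ran from 46.9 to 130 and Rem2 from 409 to 758. Stac2, an adaptor of L-type channels, ran from 758 to 1732 with a median of 999.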
